A study of Mus musculus with 12 samples.

Results

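The antioxidant genes governed by NRF2 and the genes that make and use glutathione were followed in BV2 cells, an immortalized mouse microglial line, by RNA sequencing. The list of 32 genes was taken by gene name from a deposited table of 21834 protein-coding genes, and 30 of the 32 passed the filter on low counts (at least 0.5 CPM, read counts scaled to library depth, in at least 3 libraries), among 11626 genes tested. The rule takes genes by name alone and uses no measured value, but the list was chosen with earlier results of these data known. The list also holds Gpx4 and Slc7a11, which guard cells against ferroptosis, the iron-dependent death caused by peroxidized membrane lipids, and Acsl4, which favours it. There were 4 groups of 3 libraries. The shCtrl-CTRL group was a BV2 line carrying a control shRNA, left untreated, and the shCtrl-OGDR group was the same line after oxygen-glucose deprivation and reoxygenation (OGD/R, glucose-free medium at low oxygen and then normal culture), a model of ischemia and reperfusion. The shAnxa2-CTRL and shAnxa2-OGDR groups were a BV2 line carrying an shRNA against Anxa2, a calcium-dependent membrane-binding protein, without and with OGD/R. Deprivation lasted 4 h and reoxygenation 12 h by the labels, while the study's methods state a longer reoxygenation for these cells. Each shRNA was delivered by lentivirus and held by puromycin selection, and each condition therefore rests on 1 stable line and 1 shRNA. The study's methods call the libraries of a group biological replicates of the stable line, each made up of technical replicates. Whether these were separate cultures is not stated in the sources used here, and p-values measure the spread between the 3 libraries of a group.

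NRF2, the product of Nfe2l2, is a transcription factor that KEAP1 holds in the cytoplasm and marks for degradation. Oxidants and electrophiles modify KEAP1, and NRF2 then enters the nucleus, pairs with small MAF proteins and binds antioxidant response elements near its target genes. The targets include heme oxygenase, enzymes of glutathione synthesis and the thioredoxin system. Glutathione is made from cysteine, glutamate and glycine, and cysteine enters many cells as cystine through the exchanger of which SLC7A11 is the transport subunit. SLC7A11 is also driven by ATF4, the transcription factor of the amino acid stress response, through amino acid response elements. In microglia, which release oxidants when activated, these systems limit damage to the cell itself.

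The stretches before the start sites of 4 of the genes are shown because they carry the letters of these elements and their transcripts did not all move alike. RefSeq windows of 300 bases, from 250 before to 50 after a start site in GRCm38.p6, were matched for 26 of the 32 genes. Both strands were searched for TGACNNNGC, the core of the antioxidant response element, and for TGATGNAA, the core of the amino acid response element. The first core can also contain TGACTCA, the letters bound by AP-1 factors, as it does before Prdx1. The 250 bases before each start site are printed 5′ to 3′ on the strand of the gene, with the matched core in capitals, and a core on the other strand is printed as its complement read in reverse. Slc7a11 covers chr3:50443614-50443863 (minus strand), Gclm chr3:122245307-122245556 (plus strand), Txnrd1 chr10:82858956-82859205 (plus strand, 1 of 3 windows for this gene) and Prdx1 chr4:116685349-116685598 (plus strand).
Slc7a11: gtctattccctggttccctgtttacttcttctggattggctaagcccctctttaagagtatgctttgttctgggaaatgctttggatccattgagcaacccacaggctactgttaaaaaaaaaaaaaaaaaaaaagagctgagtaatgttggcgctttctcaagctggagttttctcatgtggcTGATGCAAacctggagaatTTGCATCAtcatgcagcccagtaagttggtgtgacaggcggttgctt
Gclm: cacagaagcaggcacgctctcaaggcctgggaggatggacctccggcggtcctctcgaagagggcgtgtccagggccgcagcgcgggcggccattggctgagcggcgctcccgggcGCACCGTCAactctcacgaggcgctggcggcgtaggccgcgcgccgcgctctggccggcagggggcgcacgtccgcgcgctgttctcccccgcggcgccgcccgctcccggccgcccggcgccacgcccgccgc
Txnrd1: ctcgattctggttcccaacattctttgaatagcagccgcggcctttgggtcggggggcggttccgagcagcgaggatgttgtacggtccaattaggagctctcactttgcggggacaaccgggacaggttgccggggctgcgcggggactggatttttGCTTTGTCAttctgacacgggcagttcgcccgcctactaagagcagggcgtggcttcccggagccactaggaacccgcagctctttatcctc
Prdx1: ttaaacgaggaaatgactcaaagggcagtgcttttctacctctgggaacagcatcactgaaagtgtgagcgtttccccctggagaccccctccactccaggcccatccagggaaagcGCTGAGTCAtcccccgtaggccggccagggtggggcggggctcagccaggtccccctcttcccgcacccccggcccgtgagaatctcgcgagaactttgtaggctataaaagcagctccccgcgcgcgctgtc

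Slc7a11, the gene of the list with the largest change in every comparison but shAnxa2 against shCtrl after OGD/R, was the only matched member with TGATGNAA, with 1 copy on each strand between 66 and 40 bases before the start site. That core occurred in 3.97% of the 32851 windows of the table. The antioxidant core TGACNNNGC was found for 6 of the 26 matched genes, as TGACTCCGC for Nfe2l2, TGACCTAGC for Srxn1, TGACGGTGC for Gclm, TGACTCAGC for Prdx1, TGACCGTGC for Mgst1 and TGACAAAGC for Txnrd1, and in 14% of the 27025 genes with a window. A match is a description of letters and not a binding site. The match of Srxn1 lies 28 to 36 bases after its start site. Hmox1, Gclc, Gsr, Prdx6, Gsta4 and Abcc1 had no window and were not searched. Genes that shared the antioxidant core did not share a direction, and whether NRF2 acts on any gene of the list was not tested. Between the lines, the OGD/R change was more positive with Anxa2 knockdown for Gclm and Txnrd1, more negative for Nfe2l2, Srxn1 and Mgst1, and did not pass the test for Prdx1.

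The libraries were grouped by their titles, and a second set of labels goes against these by marking all 6 OGD/R libraries as knockdown and all 6 untreated libraries as control. Anxa2 itself followed the titles, with 164, 174 and 177 CPM in shCtrl-CTRL, 251, 294 and 291 in shCtrl-OGDR, 35.0, 44.4 and 41.8 in shAnxa2-CTRL and 18.2, 20.1 and 20.6 in shAnxa2-OGDR. It rose 1.62-fold with OGD/R in shCtrl cells (log2 0.70 ± 0.064, edgeR adjusted p = 1.21e-09) and fell 2.06-fold in shAnxa2 cells (-1.04 ± 0.083, adjusted p = 3.05e-10). Anxa2 thus checks the line of a library, and the treatment labels were not checked by a gene fixed for that purpose. Total counts ranged from 19521877 to 27288843 per library. The mean distance in log2(CPM + 0.1) over the genes tested was smallest across both line and treatment, 0.416 between shCtrl-CTRL and shAnxa2-OGDR and 0.453 between shCtrl-OGDR and shAnxa2-CTRL, against 0.584 and 0.496 between untreated and OGD/R libraries of the same line. Between the lines it was 0.562 for the untreated groups and 0.673, the largest, for the OGD/R groups. The share of counts from mitochondrial genes was 0.402% to 0.472% in shCtrl-CTRL, 0.251% to 0.272% in shCtrl-OGDR, 0.272% to 0.286% in shAnxa2-CTRL and 0.331% to 0.380% in shAnxa2-OGDR. It moved with the groups, and its part in the results below was not tested. Library shAnxa2-OGDR 1 stood apart by 66525 counts of Lars2, against at most 2670 elsewhere. All 11 microglial markers were measured, at 1586 to 1988 CPM in sum over the libraries, although P2ry12 and Tmem119, markers of resting microglia, were low at means of 2.09 and 5.65 CPM, as were the general markers Aif1 and Cx3cr1 at 4.20 and 4.24 CPM. Summed markers reached at most 0.153 CPM for neurons (4 of 6 at 0 in every library), 0.970 CPM for astrocytes and 0.376 CPM for fibroblasts, and 6.30 CPM for oligodendrocytes, mostly Mbp. Those of endothelium moved with the groups, from 60.9 to 228 CPM, nearly all of it from Kdr, while Cldn5, Cdh5 and Tek had means under 1 CPM.

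The genes were expressed over a wide range. Scaled to the summed exon length of the GENCODE M21 annotation, Hmox1 (202 CPM per kb), Gpx1 (197), Txn1 (152), Gpx4 (135) and Prdx1 (127) had the highest mean levels, and Slc7a11 (2.32) and Glrx (2.68) the lowest among the 30 genes tested. These are levels per length over the 12 libraries, with no test between genes. Slc7a11 has 13.9 kb of exon, and without scaling to length its mean was 32.3 CPM, above Glrx at 14.7 CPM. All other levels below are CPM scaled by trimmed mean of M values (TMM) and compare libraries for 1 gene only. NAD(P)H quinone dehydrogenase Nqo1, a standard reporter of NRF2 activity in other cells, did not pass the filter, with counts of 9, 6 and 12 in shCtrl-CTRL, 2, 3 and 1 in shCtrl-OGDR, 6, 0 and 5 in shAnxa2-CTRL and 9, 6 and 13 in shAnxa2-OGDR. The glutathione transferase Gsta4 had 0 counts in all 12 libraries, which allows up to 3 counts in each by counting error alone.

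**Figure D1:**
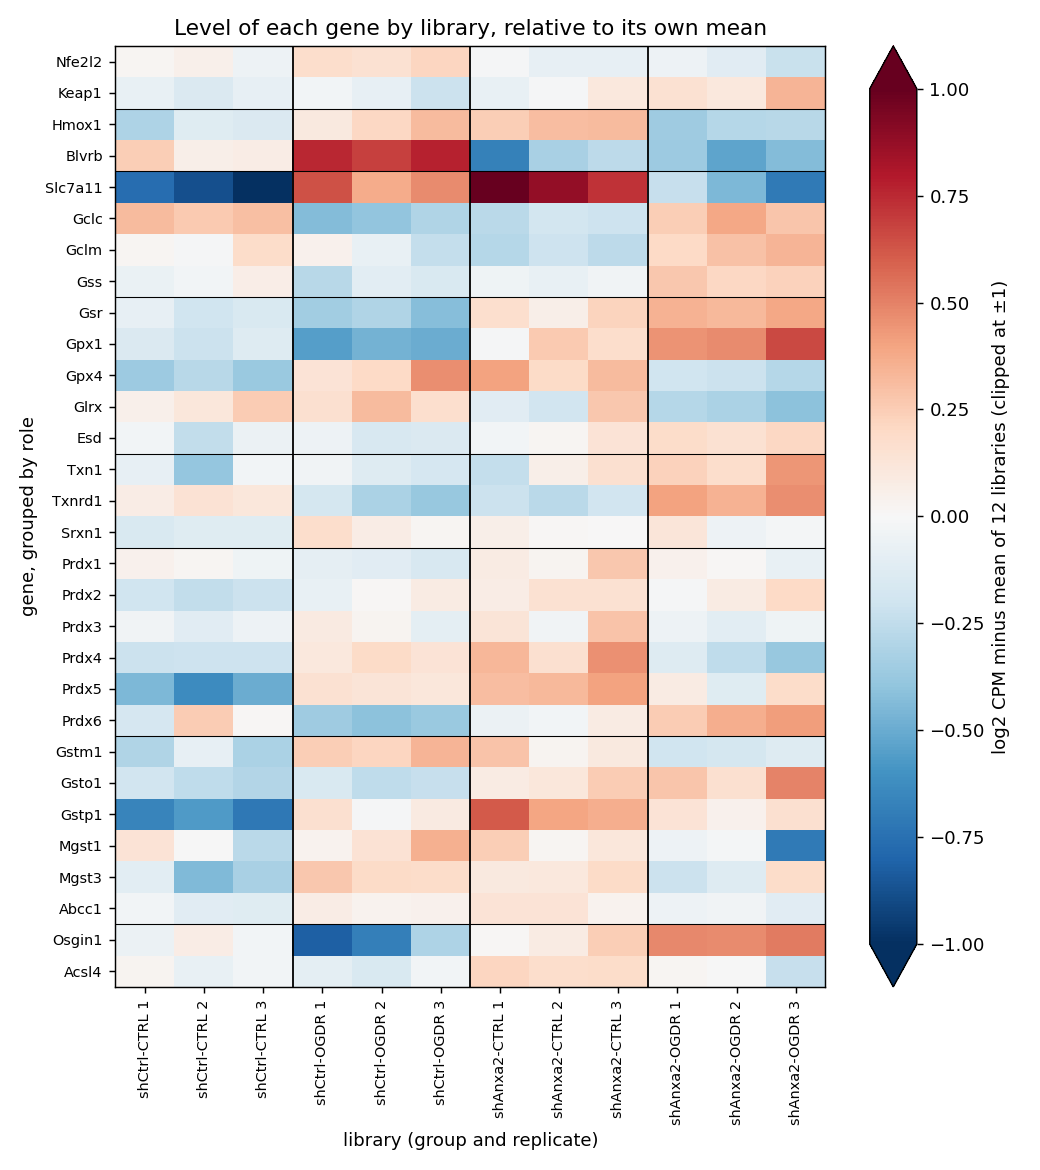
Log2 CPM of the 30 genes tested in each of the 12 libraries (columns, grouped by line and treatment), with the mean of each gene over the libraries subtracted and colours clipped at ±1. Genes are rows ordered by role, with a line between roles. Slc7a11, Gpx4, Hmox1 and the peroxiredoxins Prdx4 and Prdx5 are red in shCtrl-OGDR and shAnxa2-CTRL, and Gclc, Txnrd1 and Gpx1 are blue in shCtrl-OGDR and red in shAnxa2-OGDR.

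With libraries grouped by title, OGD/R split the list, and the split ran in opposite directions in the lines. In shCtrl cells, the cystine transporter Slc7a11, the lipid peroxidase Gpx4, heme oxygenase Hmox1, the transferases Gstp1 and Gstm1 and the peroxiredoxins Prdx4 and Prdx5 rose, while the glutathione synthesis gene Gclc, thioredoxin reductase Txnrd1, glutathione peroxidase Gpx1 and Osgin1 fell. In shAnxa2 cells the former genes fell and the latter rose. The question is how OGD/R changed antioxidant transcripts in microglial cells with normal and reduced Anxa2. Genes were called at an adjusted p under 0.05 in the quasi-likelihood test of edgeR, adjusted by Benjamini-Hochberg over every gene tested. In the control line 13 of the 30 genes rose, 8 fell and 9 were not called, where 63.4% of all genes tested were called (32.4% rose and 31.0% fell). In the knockdown line 12 rose, 13 fell and 5 were not called, where 55.0% of all genes were called (28.2% rose and 26.8% fell). Of the 30 genes, 15 were called in opposite directions in the lines and 1, Prdx1, in the same direction, and over all genes tested 44.4% were called in opposite directions, close to the share of the list. Of the 5240 genes called in both lines, 5165 went in opposite directions, and every direction within a line rests on its treatment labels. Treatment labels exchanged within a line would also give opposite directions, and such an exchange was not tested. The comparisons share no library.

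The changes were mostly small. With a limit of at least 1.5-fold added to the adjusted p, 5 genes rose and 2 fell in shCtrl cells, against 11.8% and 8.27% of all genes, and 1 rose and 2 fell in shAnxa2 cells, against 4.17% and 7.88%. The median log2 fold change of the 30 genes was 0.076 in shCtrl and -0.054 in shAnxa2 cells, beside 0.0045 and 0.0044 over all genes tested. The 3 and 3 libraries did not overlap for 21 of the 30 genes in shCtrl cells and 22 in shAnxa2 cells, against 68.0% and 58.9% of all genes. Left out singly, shAnxa2-CTRL 1 lowered the number of genes that rose in shAnxa2 cells from 12 to 8, and shAnxa2-CTRL 3 lowered the number that fell from 13 to 9.

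**Figure D2:**
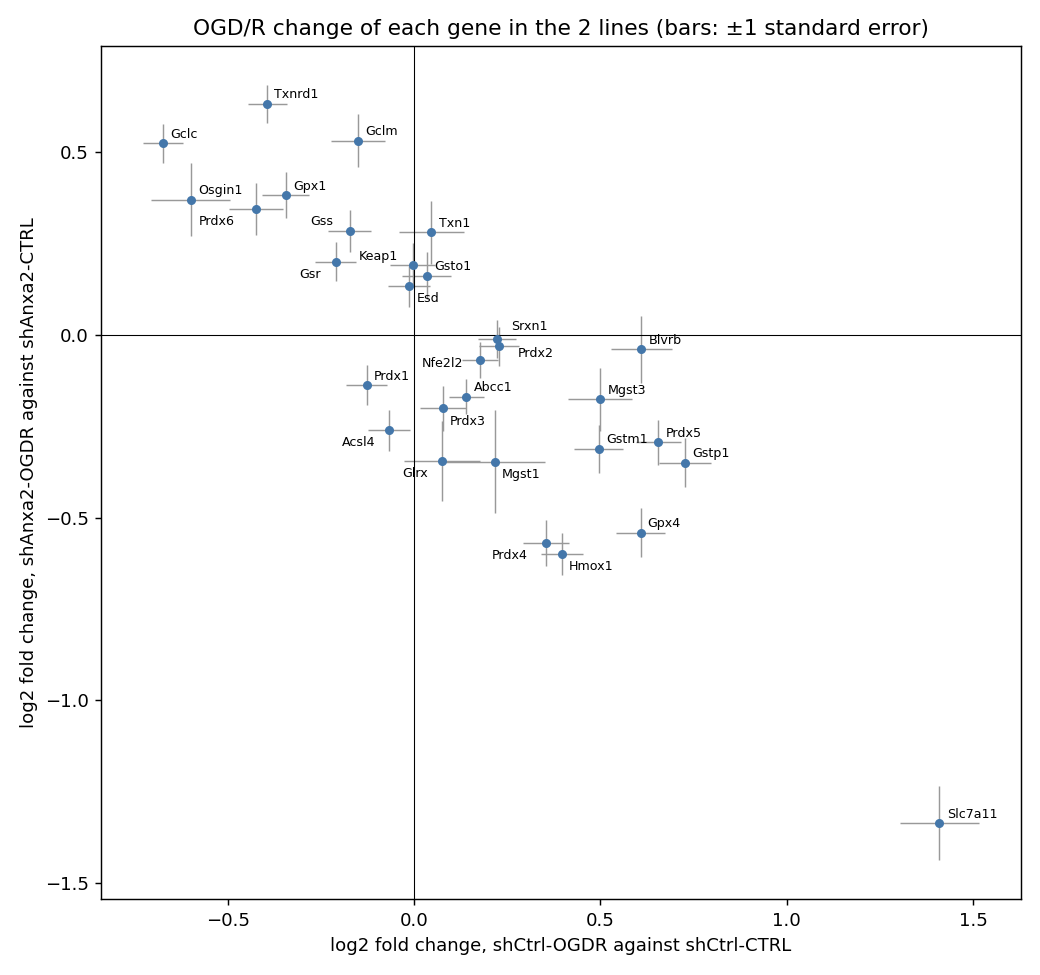
Log2 fold change after OGD/R of each of the 30 genes in the shCtrl line (horizontal axis) and the shAnxa2 line (vertical axis), with bars of 1 standard error, 3 libraries per group. Points lie mostly at the upper left and lower right, with Slc7a11 farthest out at 1.41 and -1.34.

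Between the lines, knockdown cells had more transcript of many of these genes before OGD/R, and afterwards the list was evenly split. Slc7a11, Gstp1, Prdx5 and Gpx4 were at least 1.5-fold higher in untreated shAnxa2 cells than in untreated shCtrl cells. In total 17 of the 30 genes were higher and 4 (Blvrb, Gclc, Gclm and Txnrd1) lower, where 59.2% of all genes tested were called (29.5% higher and 29.7% lower). With the limit of 1.5-fold, 4 genes were higher and 0 lower, against 9.77% and 5.81% of all genes, and the libraries of 21 genes did not overlap, against 63.6%. The median log2 fold change of the list was 0.18, beside 0.00069 over all genes. Higher genes outnumbered lower ones on the list but not among all genes, which was not tested. After OGD/R, the knockdown line had 12 genes higher and 11 lower, where 67.9% of all genes were called (33.8% higher and 34.2% lower), with a median of 0.027 beside -0.0033. With the limit of 1.5-fold, 6 were higher and 2 lower, against 11.8% and 14.4%, and the libraries of 23 genes did not overlap, against 69.9%. Only Gsr, Gpx1, Esd and Gsto1 were higher in shAnxa2 cells both without and with OGD/R, and Blvrb was lower in both. Hmox1, Slc7a11, Gpx4, Prdx4, Gstm1, Mgst3 and Abcc1 were higher without and lower with OGD/R, and Gclc, Gclm and Txnrd1 were lower without and higher with OGD/R. Of these calls, that of Esd in untreated cells was lost without shCtrl-CTRL 2 (0.094) or shAnxa2-CTRL 3 (0.10), and after OGD/R those of Abcc1 were lost without shCtrl-OGDR 1 (-0.11) or shAnxa2-OGDR 3 (-0.10), and of Mgst3 without shAnxa2-OGDR 1 (-0.18).

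**Figure D3:**
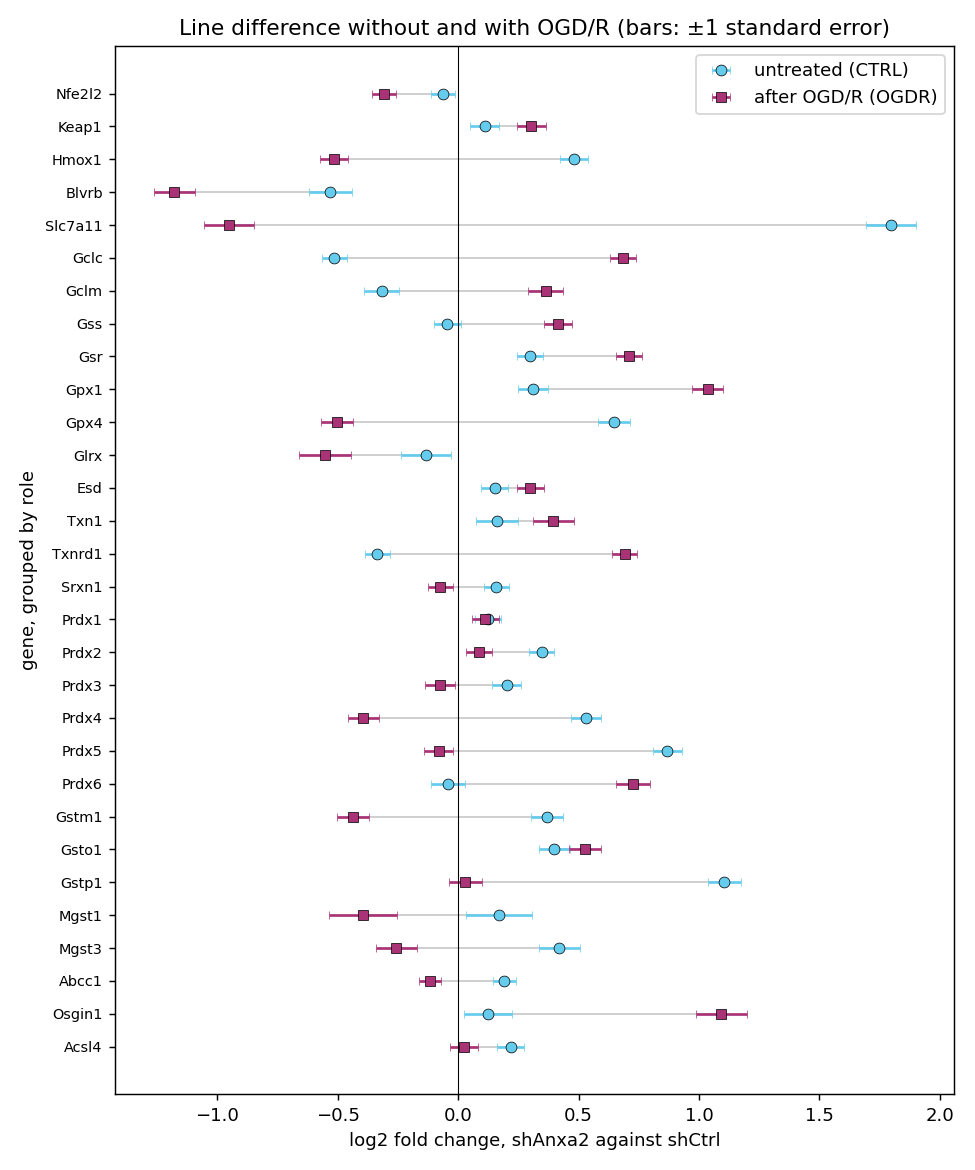
Log2 fold change of shAnxa2 against shCtrl for each of the 30 genes, in untreated libraries (circles) and after OGD/R (squares), with bars of 1 standard error, 3 libraries per group. Circles and squares lie on opposite sides of 0 for Hmox1, Slc7a11, Gclc, Gclm, Gpx4, Txnrd1 and Prdx4, and on the same side for Gpx1, Gsr, Gsto1 and Blvrb.

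The difference between the lines in the OGD/R change itself, the interaction, passed the test for 26 of the 30 genes, 9 with a more positive and 17 with a more negative change in shAnxa2 cells. Over all genes tested, 70.0% passed, 34.9% more positive and 35.1% more negative. With the limit of 1.5-fold, 6 were more positive and 9 more negative, against 19.8% and 22% of all genes. The median interaction was -0.24 on the log2 scale, beside -0.0061 over all genes. The genes with a more positive change were Gclc, Txnrd1, Osgin1, Prdx6, Gpx1, Gclm, Gss, Gsr and Keap1.

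Among the regulators, NRF2 and KEAP1 transcripts moved little. Nfe2l2 stood at 123, 126 and 117 CPM in the shCtrl-CTRL libraries, 138, 135 and 141 in shCtrl-OGDR, 120.3, 115 and 115 in shAnxa2-CTRL and 117, 112 and 104 in shAnxa2-OGDR. All shCtrl-OGDR libraries lay above all others. Nfe2l2 rose after OGD/R in the control line, with a log2 fold change of 0.18 ± 0.049 (SE, adjusted p = 0.00291), and in shAnxa2 cells the value was -0.069 ± 0.050 (adjusted p = 0.25). After OGD/R it was lower in shAnxa2 cells (log2 -0.31 ± 0.049, adjusted p = 5.79e-06). Keap1 stood at 120.1, 115 and 119 CPM in the shCtrl-CTRL libraries, 124, 119.6 and 109 in shCtrl-OGDR, 120.3, 126 and 136 in shAnxa2-CTRL and 141, 136 and 160.1 in shAnxa2-OGDR. Keap1, which targets NRF2 for degradation, was highest in shAnxa2-OGDR, and its shAnxa2 libraries after OGD/R lay above all shCtrl libraries. It rose after OGD/R in shAnxa2 cells by 0.19 ± 0.060 (adjusted p = 0.00977), a call lost without shAnxa2-CTRL 1 (0.15) or shAnxa2-OGDR 3 (0.11), and had a log2 fold change of -0.0033 in shCtrl cells (adjusted p = 0.966). The interaction of Keap1 was 0.19 ± 0.085 (adjusted p = 0.0463) and did not pass the test when any of 8 libraries was left out.

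Heme is broken down by heme oxygenase, which opens the ring and frees iron. Blvrb encodes biliverdin reductase B, and whether it acts on the product of Hmox1 in these cells was not measured. Hmox1 (ENSMUSG00000005413, chr8:75820249-75827217 on the plus strand of mm39) had 281, 319 and 314 CPM in shCtrl-CTRL, 371, 401 and 432 in shCtrl-OGDR, 412, 430.2 and 433 in shAnxa2-CTRL and 271, 285 and 286 in shAnxa2-OGDR. The groups of each comparison did not overlap. It rose 1.32-fold after OGD/R in shCtrl cells (log2 0.40 ± 0.057, adjusted p = 1.56e-06) and fell 1.51-fold in shAnxa2 cells (-0.60 ± 0.057, adjusted p = 5.53e-09). Blvrb stood at 29.4, 25.9 and 26.2 CPM in the shCtrl-CTRL libraries, 42.0, 39.9 and 42.4 in shCtrl-OGDR, 15.6, 19.9 and 20.7 in shAnxa2-CTRL and 19.3, 17.3 and 18.4 in shAnxa2-OGDR. Here the shCtrl-OGDR libraries were the highest, and both shAnxa2 groups lay below both shCtrl groups. Blvrb rose in shCtrl cells by 0.61 ± 0.082 (adjusted p = 5.8e-07), while in shAnxa2 cells the value was -0.039 ± 0.092 (adjusted p = 0.744), and after OGD/R the knockdown line had 2.26-fold less than the control line (-1.18 ± 0.086, adjusted p = 1.52e-11).

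Within glutathione synthesis, the cystine transporter Slc7a11 moved against the enzyme gene Gclc. Slc7a11 (ENSMUSG00000027737, chr3:49846975-50398063 on the minus strand of mm39) had 16.8, 15.5 and 13.3 CPM in shCtrl-CTRL, 44.4, 36.9 and 39.7 in shCtrl-OGDR, 59.0, 52.3 and 47.1 in shAnxa2-CTRL and 24.3, 20.9 and 17.5 in shAnxa2-OGDR. Libraries of untreated shAnxa2 cells were the highest and those of untreated shCtrl cells the lowest, and no library of one group overlapped another group. Slc7a11 rose 2.66-fold after OGD/R in shCtrl cells (log2 1.41 ± 0.11, adjusted p = 3.11e-11) and fell 2.53-fold in shAnxa2 cells (-1.34 ± 0.10, adjusted p = 1.65e-10). Knockdown cells had 3.47-fold more of it than control cells when untreated (1.80 ± 0.10, adjusted p = 5.64e-13) and 1.93-fold less after OGD/R (-0.95 ± 0.10, adjusted p = 1.64e-08). The interaction, -2.75 ± 0.15 (adjusted p = 4.09e-14), was the largest of the list. Slc3a2, which encodes the other subunit of the same exchanger and was picked from the wider list after its values were seen, had 379.9, 368 and 391 CPM in shCtrl-CTRL, 355, 332 and 335 in shCtrl-OGDR, 365, 346 and 356 in shAnxa2-CTRL and 425, 403 and 415 in shAnxa2-OGDR. It fell in shCtrl cells (-0.16 ± 0.047, adjusted p = 0.00549) and rose in shAnxa2 cells (0.22 ± 0.047, adjusted p = 0.000368), the directions of Gclc and not of Slc7a11. Slc7a11 is the gene whose upstream stretch above carries both copies of the amino acid response element core. Whether these copies bear on its levels was not tested.

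Gclc, Gclm and Gss encode the enzymes that build glutathione, the catalytic and modifier subunits of glutamate-cysteine ligase and glutathione synthetase. Gclc (ENSMUSG00000032350, chr9:77661817-77701767 on the plus strand of mm39) had 88.2, 85.0 and 87.0 CPM in shCtrl-CTRL, 52.3, 53.7 and 57.4 in shCtrl-OGDR, 58.8, 62.2 and 61.2 in shAnxa2-CTRL and 84.0, 92.3 and 85.6 in shAnxa2-OGDR. Untreated shCtrl and OGD/R-treated shAnxa2 libraries were high and overlapped, and the other groups were low. Gclc fell by 0.67 ± 0.053 on the log2 scale after OGD/R in shCtrl cells (adjusted p = 9.11e-11) and rose by 0.52 ± 0.054 in shAnxa2 cells (adjusted p = 1.65e-08). Gclm stood at 38.1, 37.3 and 42.9 CPM in the shCtrl-CTRL libraries, 38.8, 35.8 and 31.9 in shCtrl-OGDR, 30.9, 32.7 and 31.3 in shAnxa2-CTRL and 43.3, 46.2 and 47.8 in shAnxa2-OGDR. In shCtrl cells the groups overlapped and the log2 fold change of Gclm was -0.15 ± 0.072 (adjusted p = 0.076), whereas all 3 shAnxa2-OGDR libraries exceeded all 3 shAnxa2-CTRL libraries, a rise of 0.53 ± 0.074 (adjusted p = 1.62e-06). Gss stood at 50.6, 52.0 and 55.5 CPM in the shCtrl-CTRL libraries, 43.7, 49.1 and 47.6 in shCtrl-OGDR, 51.4, 50.2 and 51.7 in shAnxa2-CTRL and 63.9, 61.1 and 61.9 in shAnxa2-OGDR. Gss fell slightly in shCtrl cells (-0.17 ± 0.058, adjusted p = 0.0119), a call lost without shCtrl-CTRL 3 (-0.13) or shCtrl-OGDR 1 (-0.11), and rose in shAnxa2 cells (0.29 ± 0.058, adjusted p = 0.000188). Acss2 overlaps Gss on the opposite strand at a mean of 12.9 CPM, and since the library kit is not stated to mark strand, reads of the shared bases cannot be assigned.

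**Figure D4:**
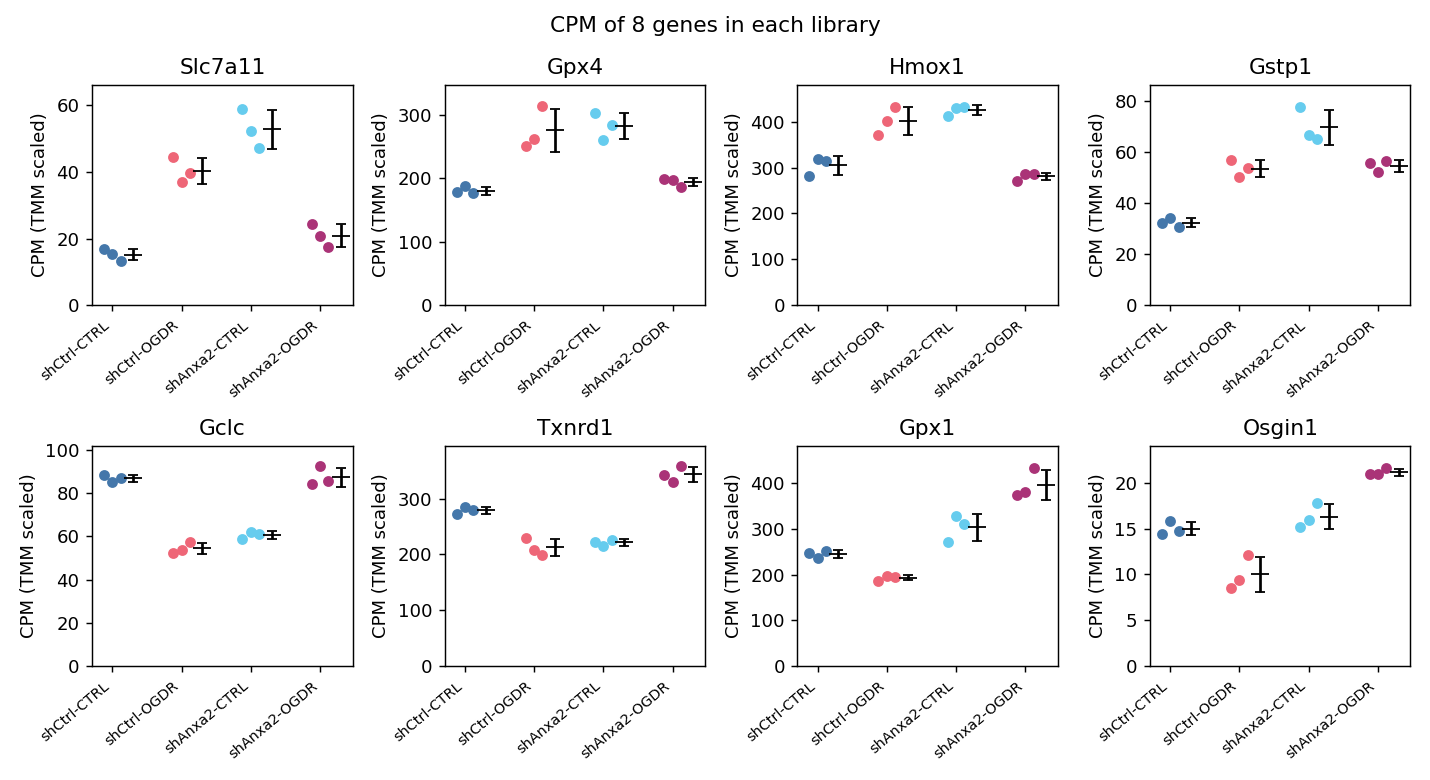
CPM in each library (points) of 4 genes that rose after OGD/R in shCtrl and fell in shAnxa2 cells (upper row: Slc7a11, Gpx4, Hmox1, Gstp1) and 4 that fell and rose (lower row: Gclc, Txnrd1, Gpx1, Osgin1). Black marks are the mean and SD of 3 libraries, and axes start at 0. In the upper row the shCtrl-CTRL libraries lie below those of shCtrl-OGDR and the shAnxa2-CTRL libraries above those of shAnxa2-OGDR.

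The genes that spend and regenerate glutathione were split as well, and the major peroxidases moved in opposite directions. Gpx4 (ENSMUSG00000075706, chr10:79883000-79892273 on the plus strand of mm39), which reduces lipid peroxides in membranes, had 177, 188 and 176 CPM in shCtrl-CTRL, 250.3, 261 and 314 in shCtrl-OGDR, 302, 261 and 284 in shAnxa2-CTRL and 198, 197 and 187 in shAnxa2-OGDR. It rose 1.52-fold in shCtrl cells (0.61 ± 0.066, adjusted p = 2.34e-08) and fell 1.46-fold in shAnxa2 cells (-0.54 ± 0.067, adjusted p = 2.98e-07), without overlap in either line. Gpx1 (ENSMUSG00000063856, chr9:108216102-108217542 on the plus strand of mm39), the cytosolic peroxidase that removes hydrogen peroxide, had 248, 236 and 251 CPM in shCtrl-CTRL, 187, 198 and 195 in shCtrl-OGDR, 272, 329 and 311 in shAnxa2-CTRL and 374, 380.0 and 434 in shAnxa2-OGDR. Every shAnxa2-OGDR library was above every other library, and every shCtrl-OGDR library below. Gpx1 fell in shCtrl cells (-0.34 ± 0.063, adjusted p = 4.5e-05) and rose in shAnxa2 cells (0.38 ± 0.062, adjusted p = 1.5e-05), and after OGD/R the knockdown line had 2.05-fold more than the control line (adjusted p = 5.67e-13).

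Gsr, which returns oxidized glutathione to its reduced form, moved in the same directions as Gpx1. Gsr stood at 72.6, 67.0 and 69.0 CPM in the shCtrl-CTRL libraries, 60.3, 62.5 and 57.3 in shCtrl-OGDR, 86.4, 80.2 and 89.6 in shAnxa2-CTRL and 97.7, 96.5 and 100.5 in shAnxa2-OGDR. It fell after OGD/R in shCtrl cells (-0.21 ± 0.054, adjusted p = 0.00166), rose in shAnxa2 cells (0.20 ± 0.053, adjusted p = 0.00259) and was 1.63-fold higher in the knockdown than in the control line with OGD/R (adjusted p = 3.15e-11). Glutaredoxin Glrx, which removes glutathione from proteins, was low in shAnxa2-OGDR, with 11.9, 11.7 and 10.9 CPM against 13.4, 12.7 and 17.5 in shAnxa2-CTRL and 15, 15.7 and 17.3 in shCtrl-CTRL. Its fall in shAnxa2 cells (-0.35 ± 0.11, adjusted p = 0.0105) did not pass the test without shAnxa2-CTRL 3 (-0.18), and without the same library its interaction was -0.26 and was not called either. Esd, an esterase that releases glutathione from S-formylglutathione, rose in shAnxa2 cells by 0.13 ± 0.056 (adjusted p = 0.0472). That call was lost in 9 of the 12 fits that leave out 1 library.

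The thioredoxin system is the other route by which cells reduce protein thiols. Txnrd1 (ENSMUSG00000020250, chr10:82669785-82733546 on the plus strand of mm39), the selenoenzyme that recharges thioredoxin, had 273, 286 and 280.0 CPM in shCtrl-CTRL, 229.7, 209 and 199.9 in shCtrl-OGDR, 223, 215 and 227 in shAnxa2-CTRL and 343, 330.2 and 358 in shAnxa2-OGDR. Like Gclc, it was high in untreated shCtrl and in OGD/R-treated shAnxa2 cells, here without overlap between these groups. Txnrd1 fell 1.31-fold in shCtrl cells (-0.39 ± 0.052, adjusted p = 4.76e-07) and rose 1.55-fold in shAnxa2 cells (0.63 ± 0.052, adjusted p = 5.58e-10). Its substrate Txn1 had 134, 165 and 177 CPM in shAnxa2-CTRL and 186, 179 and 215 in shAnxa2-OGDR, a rise of 0.28 ± 0.087 (adjusted p = 0.00823) that was lost without shAnxa2-CTRL 1 (0.17) or shAnxa2-OGDR 3 (0.19). In shCtrl cells the value of Txn1 was 0.047 ± 0.087 (adjusted p = 0.654). Sulfiredoxin Srxn1, which rescues overoxidized peroxiredoxins, had 86.6, 88.4 and 88.1 CPM in shCtrl-CTRL and 108, 101 and 97.2 in shCtrl-OGDR, a rise of 0.22 ± 0.052 (adjusted p = 0.000645), and a value of -0.010 ± 0.052 in shAnxa2 cells (adjusted p = 0.887).

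The 6 peroxiredoxins, which reduce peroxides with thiols, did not move as a family. Prdx4, of the endoplasmic reticulum, and Prdx5, of mitochondria and other compartments, rose in shCtrl cells and fell in shAnxa2 cells, and Prdx6, which reduces phospholipid peroxides, did the reverse. Prdx4 stood at 113, 114 and 114 CPM in the shCtrl-CTRL libraries, 141, 150.2 and 144 in shCtrl-OGDR, 166, 146 and 180.2 in shAnxa2-CTRL and 120.4, 110.2 and 101 in shAnxa2-OGDR. It rose by 0.35 ± 0.062 in shCtrl cells (adjusted p = 2.7e-05) and fell in shAnxa2 cells (-0.57 ± 0.063, adjusted p = 5.61e-08). Prdx5 stood at 93.8, 82.7 and 90.4 CPM in the shCtrl-CTRL libraries, 142, 139.9 and 138 in shCtrl-OGDR, 158, 159.8 and 169 in shAnxa2-CTRL and 135, 117 and 145 in shAnxa2-OGDR. The 3 shCtrl-CTRL libraries were the lowest of the 12 for Prdx5, the 3 of shAnxa2-CTRL the highest, and it rose 1.58-fold in shCtrl cells (adjusted p = 1.63e-09) and fell 1.23-fold in shAnxa2 cells (adjusted p = 0.000231). Prdx6 stood at 81.4, 109 and 92.1 CPM in the shCtrl-CTRL libraries, 71.2, 68.9 and 70.6 in shCtrl-OGDR, 87.7, 89.8 and 96.7 in shAnxa2-CTRL and 109, 117 and 122 in shAnxa2-OGDR. Prdx6 fell in shCtrl cells (-0.42 ± 0.072, adjusted p = 1.76e-05) and rose in shAnxa2 cells (0.35 ± 0.071, adjusted p = 0.00024).

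The remaining peroxiredoxins changed less. Prdx2 rose in shCtrl cells (0.23 ± 0.053, adjusted p = 0.000634) with a value of -0.031 ± 0.053 in shAnxa2 cells, and it overlaps Junb (mean 219.8 CPM) and Rnaseh2a on the opposite strand. Mitochondrial Prdx3 fell in shAnxa2 cells (-0.20 ± 0.062, adjusted p = 0.00862), a call lost without shAnxa2-CTRL 3 (-0.12). Cytosolic Prdx1 was the only gene called lower in both lines (-0.13 ± 0.056, adjusted p = 0.0499, and -0.14 ± 0.056, adjusted p = 0.0394). Its call in shCtrl cells was lost in 9 of the 12 fits without 1 library and that in shAnxa2 cells without shAnxa2-CTRL 3 (-0.061), shAnxa2-OGDR 2 (-0.15) or shAnxa2-OGDR 3 (-0.11). Of the 30 genes, Prdx1 had the smallest interaction, -0.011 ± 0.079 (adjusted p = 0.911).

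Glutathione transferases, which attach glutathione to electrophiles, differed from gene to gene. Gstp1 and Gstm1 moved in the same directions as Slc7a11 in both lines, and Gsto1 did not. Gstp1 stood at 32.1, 34.2 and 30.8 CPM in the shCtrl-CTRL libraries, 56.7, 50.2 and 53.8 in shCtrl-OGDR, 77.6, 66.6 and 65.0 in shAnxa2-CTRL and 55.6, 52.1 and 56.5 in shAnxa2-OGDR. All untreated shCtrl libraries were lower than every other library, and all untreated shAnxa2 libraries higher. Gstp1 rose 1.65-fold in shCtrl cells (0.73 ± 0.070, adjusted p = 2.86e-09) and fell 1.27-fold in shAnxa2 cells (-0.35 ± 0.068, adjusted p = 0.000118), and the line difference of 1.11 ± 0.070 without OGD/R was 0.030 ± 0.068 (adjusted p = 0.718) with OGD/R. Gstm1 stood at 62.8, 73.1 and 62.0 CPM in the shCtrl-CTRL libraries, 91.9, 89.5 and 97.9 in shCtrl-OGDR, 94.3, 78.8 and 82.9 in shAnxa2-CTRL and 67.3, 68.3 and 70.6 in shAnxa2-OGDR. It rose in shCtrl cells (0.50 ± 0.066, adjusted p = 4.98e-07) and fell in shAnxa2 cells (-0.31 ± 0.067, adjusted p = 0.000349). Near copies could share reads with these genes, and Gstp2 and Gstp3 had means of 0.0402 and 0.50 CPM, while Gstm4 had 19.5 and Gstm2 3.60 CPM.

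The microsomal transferases Mgst1 and Mgst3 and Abcc1, which exports glutathione conjugates, had negative interactions, as Gstp1 and Gstm1 did. Mgst3 rose in shCtrl cells (0.50 ± 0.085, adjusted p = 1.75e-05), with 36.9, 29.2 and 31.6 CPM before and 47.7, 45.3 and 45.0 after OGD/R, and in shAnxa2 cells the value was -0.18 ± 0.086 (adjusted p = 0.0854), which passed the test without shAnxa2-OGDR 3 (-0.31). Mgst1 had 13.6, 11.6 and 12.4 CPM in shAnxa2-CTRL and 11.1, 11.4 and 7.03 in shAnxa2-OGDR. The third of the latter libraries was the lowest of all, and the fall in shAnxa2 cells (-0.35 ± 0.14, adjusted p = 0.0416) was -0.16 and not called without it, and the call was also lost without shAnxa2-CTRL 1 (-0.29) or shAnxa2-CTRL 3 (-0.36). Abcc1 rose by 0.14 ± 0.047 in shCtrl cells (adjusted p = 0.0115) and fell in shAnxa2 cells (-0.17 ± 0.047, adjusted p = 0.00386). Gsto1 stood at 141, 134 and 131 CPM in the shCtrl-CTRL libraries, 144, 135 and 137 in shCtrl-OGDR, 169.6, 174 and 192 in shAnxa2-CTRL and 194, 179 and 227 in shAnxa2-OGDR. The omega-class transferase Gsto1 was higher in the knockdown line whatever the treatment, by 0.40 ± 0.065 without OGD/R (adjusted p = 1.21e-05) and 0.53 ± 0.065 with OGD/R (adjusted p = 1.29e-07). Its rise after OGD/R in shAnxa2 cells (0.16 ± 0.065, adjusted p = 0.0369) was lost without shAnxa2-CTRL 1 (0.13), shAnxa2-CTRL 2 (0.14) or shAnxa2-OGDR 3 (0.058). Cfap43 overlaps Gsto1 on the opposite strand at a mean of 0.547 CPM. The other omega-class gene, Gsto2, also picked after its values were seen, had 1.17, 1.36 and 0.919 CPM in shCtrl-CTRL, 2.42, 1.45 and 2.61 in shCtrl-OGDR, 1.81, 1.88 and 1.79 in shAnxa2-CTRL and 0.459, 1.23 and 0.873 in shAnxa2-OGDR. Unlike Gsto1, it rose in shCtrl cells (0.89 ± 0.28, adjusted p = 0.00687) and fell in shAnxa2 cells (-1.05 ± 0.31, adjusted p = 0.00613). The counts of Gsto2 were low, from 9 to 62 per library.

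The last genes of the list are Osgin1, an NRF2-induced regulator of growth and cell death, and Acsl4, which loads polyunsaturated fatty acids into membrane lipids. Osgin1 stood at 14.4, 15.8 and 14.7 CPM in the shCtrl-CTRL libraries, 8.52, 9.35 and 12.1 in shCtrl-OGDR, 15.2, 15.9 and 17.8 in shAnxa2-CTRL and 20.9, 20.9 and 21.6 in shAnxa2-OGDR. The shAnxa2-OGDR libraries were the highest and the shCtrl-OGDR libraries the lowest. Osgin1 fell 1.51-fold in shCtrl cells (-0.60 ± 0.11, adjusted p = 3.04e-05) and rose 1.29-fold in shAnxa2 cells (0.37 ± 0.10, adjusted p = 0.00299), and after OGD/R the knockdown line had 2.13-fold more than the control line (adjusted p = 1.9e-09). Acsl4 stood at 251, 234 and 242 CPM in the shCtrl-CTRL libraries, 230.5, 221 and 242 in shCtrl-OGDR, 287, 279 and 280.3 in shAnxa2-CTRL and 249, 246 and 210.4 in shAnxa2-OGDR. Acsl4 fell after OGD/R in shAnxa2 cells (-0.26 ± 0.056, adjusted p = 0.000396), and the value in shCtrl cells was -0.067 ± 0.056 (adjusted p = 0.309). Its interaction of -0.19 ± 0.080 (adjusted p = 0.0339) was lost without shCtrl-CTRL 2 (-0.18), shCtrl-OGDR 3 (-0.16), shAnxa2-CTRL 1 (-0.18) or shAnxa2-OGDR 3 (-0.13).

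Seen by group, none of the 30 genes had its highest mean in untreated shCtrl cells, while 12 had it in shAnxa2-OGDR, 11 in shAnxa2-CTRL and 7 in shCtrl-OGDR. Untreated shCtrl cells held the lowest mean of 12 genes, shCtrl-OGDR of 11, shAnxa2-OGDR of 6 and shAnxa2-CTRL of 1, Gclm. Over all genes tested, the highest mean fell in shCtrl-CTRL for 22.3%, shCtrl-OGDR for 31.3%, shAnxa2-CTRL for 18.5% and shAnxa2-OGDR for 27.9% of genes, and the lowest for 24.9%, 31.6%, 18.1% and 25.4% in the same order of groups. These orders are of means, and neighbouring groups often overlapped, as Gclc did in shCtrl-CTRL and shAnxa2-OGDR.

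Ratios of counts within a library need no scaling between libraries, and they give the size of the divergence for 3 pairs of genes. Each pair was chosen with its opposite directions known, so the separation of the groups is fixed by that choice and no test is given. Slc7a11 reads per Gclc read were 0.190, 0.183 and 0.153 in shCtrl-CTRL, 0.849, 0.687 and 0.691 in shCtrl-OGDR, 1.00, 0.841 and 0.770 in shAnxa2-CTRL and 0.290, 0.226 and 0.205 in shAnxa2-OGDR. With OGD/R the mean ratio was 4.23 times its untreated value in the control line and 0.275 times in the knockdown line. Gpx4 reads per Gpx1 read were 0.715, 0.796 and 0.700, 1.34, 1.32 and 1.61, 1.11, 0.793 and 0.914 and 0.530, 0.518 and 0.430 in the same order of groups, and the mean with OGD/R was 1.93 times its untreated value in the control line and 0.525 times in the knockdown line. Hmox1 reads per Txnrd1 read had means of 1.09 ± 0.0533, 1.90 ± 0.275, 1.92 ± 0.0766 and 0.817 ± 0.0404 (SD, n = 3 libraries). The ratios follow the fits and add no independent sample.

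**Figure D5:**
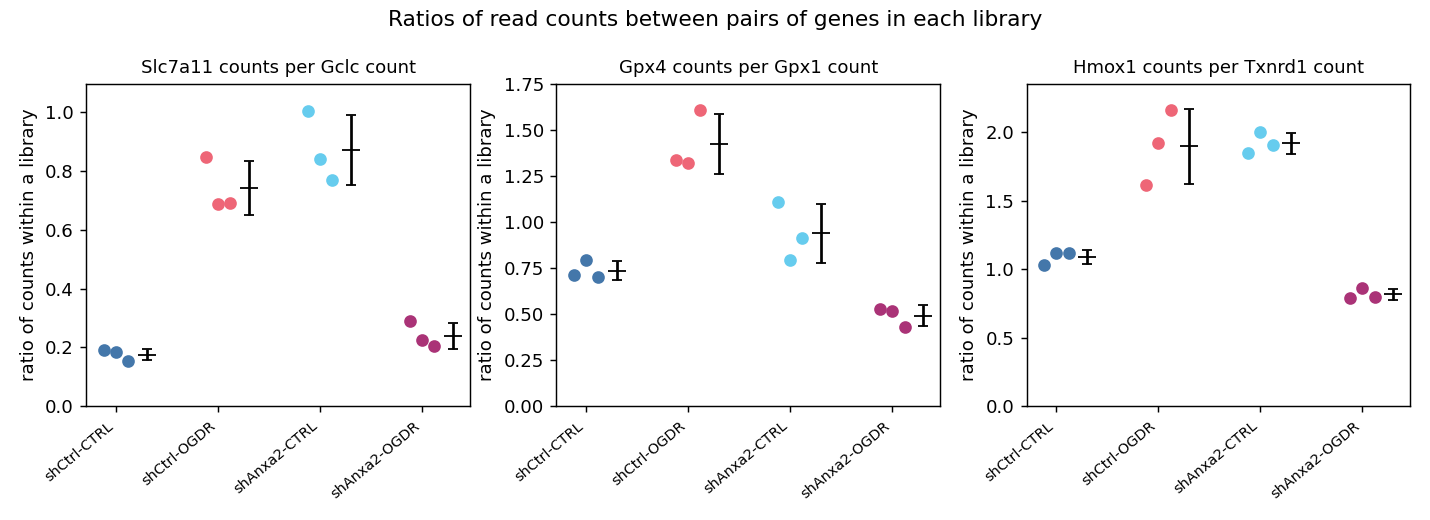
Ratio of read counts within each library (points) for Slc7a11 per Gclc, Gpx4 per Gpx1 and Hmox1 per Txnrd1, with the mean and SD of 3 libraries in black and axes from 0. In all 3 panels shCtrl-OGDR lies above shCtrl-CTRL and shAnxa2-OGDR below shAnxa2-CTRL.

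Other genes of these pathways were counted from a list of 90, of which 75 passed the filter. They hold NRF2 partners and antagonists, further NRF2 targets, other thiol enzymes, glutathione metabolism and ferroptosis genes. After OGD/R 34 of the 75 rose and 15 fell in shCtrl cells, against 32.4% and 31.0% of all genes tested. In shAnxa2 cells 14 rose and 30 fell, against 28.2% and 26.8%. The medians were 0.18 in shCtrl and -0.13 in shAnxa2 cells, beside 0.0045 and 0.0044 over all genes. The share called in opposite directions in the lines was 46.7%, close to the 44.4% of all genes. In shAnxa2 against shCtrl cells 33 were higher and 11 lower without OGD/R, against 29.5% and 29.7% of all genes. With OGD/R 25 were higher and 32 lower, against 33.8% and 34.2%. The interaction was more positive for 17 and more negative for 35, against 34.9% and 35.1% of all genes. By list, 11 of 23 further NRF2 targets rose and 6 fell in shCtrl cells, against 2 and 10 in shAnxa2 cells, and 8 of 17 glutathione genes rose and 3 fell in shCtrl cells, against 2 and 6. The ferroptosis genes were divided, with 4 of 11 higher and 2 lower in shCtrl cells and 3 higher and 4 lower in shAnxa2 cells. Of 11 NRF2 partners and antagonists, 6 rose and 1 fell in shCtrl cells, and 4 rose and 5 fell in shAnxa2 cells. Of 13 other thiol enzymes, 5 rose and 3 fell in shCtrl cells, and 3 rose and 5 fell in shAnxa2 cells. Beside these smaller lists, 32.4% of all genes rose and 31.0% fell in shCtrl cells, and 28.2% rose and 26.8% fell in shAnxa2 cells.

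The genes of this wider list named here are those with the largest interactions in each direction. Tfrc, the transferrin receptor that brings iron into cells, had 709, 698 and 740.4 CPM in shCtrl-CTRL, 267, 289 and 259 in shCtrl-OGDR, 476, 517 and 473 in shAnxa2-CTRL and 759.8, 784 and 689 in shAnxa2-OGDR, and its interaction was 2.01 ± 0.078 (adjusted p = 1.08e-16). Its lowest libraries were those of shCtrl-OGDR. The lipoxygenase Alox15 (0.95 ± 0.26, adjusted p = 0.00255) and mitochondrial thioredoxin Txn2 (0.76 ± 0.075, adjusted p = 2.6e-09) also had more positive OGD/R changes in shAnxa2 cells. In the other direction, the transferase Gstm2 had 3.30, 2.34 and 3.27 CPM in shCtrl-CTRL, 6.80, 6.37 and 8.30 in shCtrl-OGDR, 3.62, 3.08 and 3.26 in shAnxa2-CTRL and 1.02, 1.11 and 0.679 in shAnxa2-OGDR, an interaction of -3.06 ± 0.28 (adjusted p = 8.11e-10). Chac1, which degrades glutathione, was low throughout, at 2.93, 1.83 and 2.56 CPM in shCtrl-OGDR and 0.561, 0.556 and 0.339 in shAnxa2-OGDR. The interaction of Chac1 was -2.92 ± 0.44 (adjusted p = 2.39e-06). Epoxide hydrolase Ephx1 had 33.2, 30.5 and 33.3 CPM in shCtrl-CTRL, 60.3, 63.5 and 69.3 in shCtrl-OGDR, 94.4, 93.2 and 104 in shAnxa2-CTRL and 48.3, 45.5 and 46.9 in shAnxa2-OGDR, the same order of groups as Slc7a11, and an interaction of -2.04 ± 0.089 (adjusted p = 8.47e-16).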

How the data were processed

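BV2 RNA was sequenced in 12 libraries, 3 in each of 4 groups taken from the sample titles. The authors deposited read counts per gene, without normalization. The submitters' processing notes name HISAT2 2.0.4 and mm39, and the study's methods name HTSeq for its hippocampal libraries. The counting tool and strand setting for the BV2 libraries are not given in the sources used here. The NEBNext Ultra kit is not stated to mark strand. The table also held 12 per-sample columns of normalized counts, which were not used.

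Counts were tested with edgeR 4.0.16 in R 4.3.3. The 11626 genes that reached 0.5 CPM in 3 or more libraries were scaled by TMM and fitted in a single quasi-likelihood model of all 12 libraries, and p-values of each of 5 contrasts were adjusted by Benjamini-Hochberg. Standard errors were derived from the log2 fold change and its F statistic. The spread between replicates corresponded to a biological coefficient of variation of 5.35%. Replicates of a group differed by more than counting error. The steps were tested on simulated counts. Alternatives were median-of-ratios and library total scaling, no filter or 1 CPM, DESeq2 1.42.0, limma 3.58.1 with voom, a replicate block, fits of the compared groups alone, and leaving out each library.

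All 32 genes of the list could be named, with Anxa2 as the targeted gene. Of a list of 90 other pathway genes, the 3 with the largest interaction in each direction were named, given an adjusted p under 0.05 and a mean of at least 1 CPM. Slc3a2 and Gsto2 were added after their values were seen. The genes and lists were chosen with earlier results of these data known. Lengths come from GENCODE M21 and upstream stretches from RefSeq (GRCm38.p6), used for no mm39 coordinate.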

Additional observations from a re-analysis of the deposited data

Results flagged for a closer look

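For 26 of the 30 genes, the change after OGD/R differed between the shCtrl and shAnxa2 lines by a test of the difference itself, the interaction in edgeR at an adjusted p under 0.05, as it did for 70.0% of all genes tested. The values are differences on the log2 scale, the change in shAnxa2 minus the change in shCtrl. More negative changes in shAnxa2 cells were found for the cystine transporter Slc7a11 at -2.75, the lipid peroxidase Gpx4 at -1.15, heme oxygenase Hmox1 at -1.0 and biliverdin reductase Blvrb at -0.65. Among transferases and the exporter, they were Gstp1 at -1.08, Gstm1 at -0.81, Mgst3 at -0.68, Mgst1 at -0.56 and Abcc1 at -0.31. Among peroxiredoxins, they were Prdx5 at -0.95, Prdx4 at -0.92, Prdx3 at -0.28 and Prdx2 at -0.26. Glrx at -0.42, Nfe2l2 at -0.25, Srxn1 at -0.23 and Acsl4 at -0.19 complete the 17.

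More positive changes in shAnxa2 cells were found for 9 genes, Gclc at 1.20, Txnrd1 at 1.03, Osgin1 at 0.97, Prdx6 at 0.77, Gpx1 at 0.73, Gclm at 0.68, Gss at 0.46, Gsr at 0.41 and Keap1 at 0.19. The value of Keap1 did not pass the test with library totals alone, with a filter of 1 CPM, with DESeq2, with voom or with the replicate block. The calls of Acsl4 and Glrx depended on single libraries, as given with their levels.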

How the results depend on the processing

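No called gene changed direction under any alternative run. The median of the 30 genes for shAnxa2 against shCtrl after OGD/R, 0.027, lay just below 0 with library totals alone and was -0.012 without shCtrl-OGDR 2, and the other medians kept their sign. For the genes named, 1488 of 1521 values kept their side of the threshold under another scaling, filter, tool or design, 26 lost the call and 7 gained one. With 1 library left out, 2253 of 2340 kept it, 69 lost and 18 gained. Calls lost in this way are named above only for genes of the list, and not for the other genes named. With at least 1.5-fold required, the genes higher and lower were 5 and 2 for OGD/R in shCtrl, 1 and 2 in shAnxa2, 4 and 0 for shAnxa2 against shCtrl untreated (where edgeR alone called 4 lower), 6 and 2 after OGD/R, and 6 and 9 for the interaction. DESeq2 called 9 rather than 12 genes higher after OGD/R in shAnxa2.

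Leaving out each library gave 13 to 13 higher and 6 to 8 lower for OGD/R in shCtrl, 8 to 12 and 9 to 13 in shAnxa2, 15 to 19 and 4 to 5 for the untreated lines, 12 to 13 and 10 to 11 after OGD/R, and 8 to 11 and 16 to 17 for the interaction. With the replicate number as a block, 13 genes were higher and 7 lower for OGD/R in shCtrl, 12 and 13 in shAnxa2, 17 and 4 for the untreated lines, 12 and 11 after OGD/R, and 8 and 17 for the interaction. Same-numbered deviations correlated at -0.0513 to 0.135, and 6 of 12 libraries correlated best with their own number. These values do not show a pairing by number, and with 3 libraries a group they cannot exclude one.

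Other scalings moved the median of all genes by -0.030 to 0.0037 on the log2 scale. With 3 libraries a group, from 1 line each, the line and the knockdown cannot be told apart. Directions within a line and the interaction rest on the treatment labels, whose exchange within a line was not tested. Nqo1, with 0 to 13 counts per library and a mean of 0.26 CPM, lay below the filter and was not tested.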
